A study of Mus musculus with 7 samples.

Results

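The genes of MHC class II antigen presentation were examined in mouse uterus after intrauterine infusion of the chemokine CXCL12. The members were taken by gene symbol and are H2-Aa, H2-Ab1, H2-Eb1, H2-DMa, H2-DMb1, H2-Oa, Cd74, Ciita and Cd209a. They make up 9 of the 23282 rows in each expression table, and all 9 were listed. C57BL/6 females were 6 weeks old, and recombinant human CXCL12 (100 ng in 30 µl of saline) was infused into one uterine horn while saline alone was infused into the other. Whole uterine tissue gave 2 saline-treated libraries, 2 CXCL12 libraries taken at Day 3 and 3 CXCL12 libraries taken at Day 8. The day on which the saline-treated uteri were taken is not in the labels, which also do not tie a horn to an animal, so p-values measure the spread between these libraries. The study asked how CXCL12 infusion alters gene expression in the uterus, and the comparisons here were Day 8 with saline, Day 3 with saline, and Day 8 with Day 3.

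MHC class II molecules are pairs of an alpha and a beta chain that display peptides from endosomes to CD4+ T cells, mainly on dendritic cells, macrophages and B cells. The invariant chain Cd74 fills the groove until proteases trim it, H2-DM exchanges the remaining piece for a peptide, and H2-DO restrains H2-DM. Ciita is the transactivator that acts on the promoters of these genes through factors bound at the X and Y boxes, and interferon gamma is its best known inducer. Cd209a, a C-type lectin of dendritic and monocyte-derived cells, is not part of that machinery.

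Of the members, 6 lie close together in the MHC region of chromosome 17, within 224.3 kb at chr17:34092379-34316674 (GRCm38.p6). Ciita lies at chr16:10480014-10531064 and Cd209a at chr8:3743395-3748984. RefSeq promoter windows, 250 bases before to 50 after a gene's start, were at hand for 6 members. In 4 of these (H2-Aa, H2-Eb1, H2-DMb1 and H2-Oa) the letters GNAAC, the core of an X box, were followed after 20 to 30 bases by TGATTGG, a Y box. These letters were chosen after the promoters had been read, and both strands were searched. The windows are shown because Ciita acts on class II promoters through factors bound at such boxes. The letters alone do not show whether Ciita acts on a gene. The capitals mark the X core and the Y box, each sequence is printed 5′ to 3′ in the direction of its gene, and positions are those of GRCm38.p6.
H2-Aa (chr17:34287855-34287916, minus strand): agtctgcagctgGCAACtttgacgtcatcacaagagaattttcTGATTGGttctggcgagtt
H2-Eb1 (chr17:34305764-34305824, plus strand): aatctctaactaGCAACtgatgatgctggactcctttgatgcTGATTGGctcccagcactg
H2-DMb1 (chr17:34153085-34153146, plus strand): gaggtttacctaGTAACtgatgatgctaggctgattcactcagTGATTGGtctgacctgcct
H2-Oa (chr17:34092291-34092352, plus strand): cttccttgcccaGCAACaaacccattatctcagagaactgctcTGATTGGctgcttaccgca

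The spacer between the boxes was 26 bases in H2-Aa, H2-DMb1 and H2-Oa and 25 bases in H2-Eb1, and the X core began 76 to 94 bases before the start. Of all 32851 windows, 0.323% held the pair, 7.82% held TGATTGG and 84.8% held GNAAC. The 2 windows of H2-DMa and the window of Cd209a did not hold the pair in these letters. H2-Ab1, Cd74 and Ciita have no printed window.

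Expression was measured by QuantSeq, in which reads come from the 3′ ends of poly(A) transcripts, so that a level does not grow with transcript length. The 6 libraries deposited as counts held 6908790 to 12308982 reads. Levels are given as CPM, the reads of a gene scaled to the effective size of its library by edgeR's TMM method, and in the count libraries 3 reads, taken as the floor, are worth 0.248 to 0.368 CPM, which covers counting error alone. Day 3 replicate 1 was deposited as log2 values of normalized counts and was returned to the linear scale. Groups are said not to overlap where all CPM values of a group lay above all those of the other.

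Saline replicate 1 and Day 8 replicate 1 differed from the other libraries of their groups. Saline replicate 1 correlated with the other libraries at r = 0.876 to 0.899 over 14830 genes, which are not independent of each other, and saline replicate 2 at 0.893 to 0.946. Day 8 replicate 1 correlated at 0.950 and 0.953 with the Day 3 libraries and at 0.894 and 0.901 with the other Day 8 libraries, and the name of its table carries Day 3. Day 8 replicates 2 and 3 correlated with each other at 0.937 and with the other libraries at 0.879 to 0.914. Day 8 replicate 1 was kept at Day 8 by its label.

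The summed level of the 9 members was 788 and 415 CPM in saline replicates 1 and 2, 569 and 520.2 CPM at Day 3, and 561, 1183 and 1267 CPM in Day 8 replicates 1, 2 and 3. Day 8 replicates 2 and 3 therefore stood above every other library, and Day 8 replicate 1 lay among the Day 3 libraries. H2-Aa, H2-Ab1, H2-Eb1 and Cd74 together gave 95.0% to 97.1% of this sum. In bulk tissue, fewer cells of a type and less RNA per cell cannot be told apart.

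**Figure D1:**
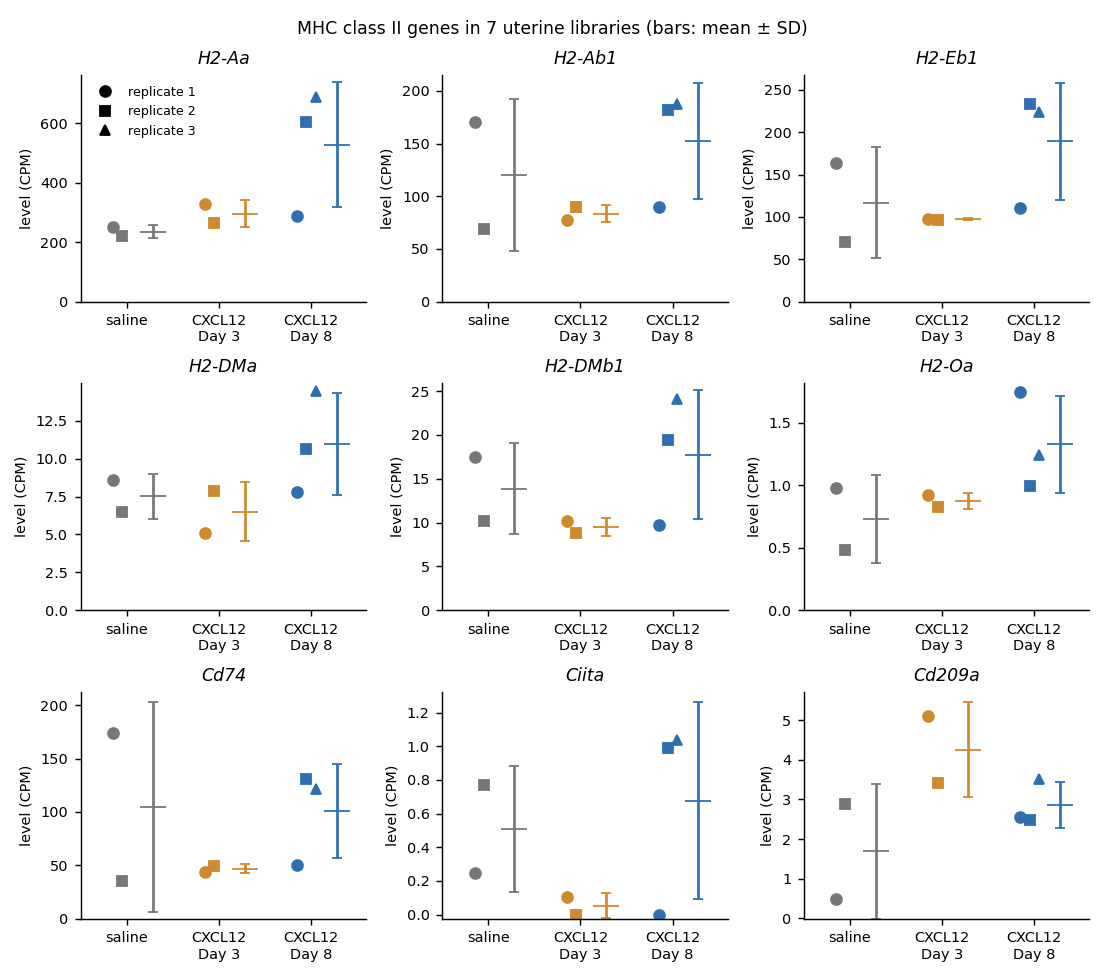
Levels (CPM, vertical axes) of the 9 members in each library, by group, with symbols for the replicate number and bars for the mean ± SD (saline n = 2, Day 3 n = 2, Day 8 n = 3). For H2-Aa, Day 8 replicates 2 and 3 sit at 603 and 689.7 CPM and all other libraries at 328 CPM or below, and in the panels of H2-Ab1, H2-Eb1 and Cd74 saline replicate 1 lies far above saline replicate 2.

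H2-Aa encodes the alpha chain of the I-A molecule and had the highest level of the members in every library. It reached 252 and 219.7 CPM in saline, 328 and 264 CPM at Day 3, and 289.7, 603 and 689.7 CPM at Day 8. All Day 8 libraries were above both saline-treated libraries, by a narrow margin in Day 8 replicate 1. The mean was 527 ± 210.4 CPM (SD, n = 3) at Day 8 and 236 ± 22.8 CPM (SD, n = 2) in saline, and the log2 fold change was 1.16 (SE 0.416). This value was past the limits used for a call, which are a change of at least 2-fold and an unadjusted P below 0.05, but the adjusted p (edgeR, Benjamini-Hochberg) was 0.956.

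H2-Ab1 encodes the beta chain that pairs with H2-Aa. Its levels were 171 and 68.7 CPM in saline, 77.6 and 89.4 CPM at Day 3, and 89.3, 181 and 187 CPM at Day 8. Saline replicate 1 was nearly as high as Day 8 replicates 2 and 3, so the groups overlapped. The log2 fold change at Day 8 was 0.35 (SE 0.489, edgeR), less than its error. It was 1.15 without saline replicate 1 and -0.15 without saline replicate 2.

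H2-Eb1, the beta chain of the I-E molecule, was likewise high in Day 8 replicates 2 and 3 and in saline replicate 1. It was at 163 and 70.45 CPM in saline, 97.8 and 96.5 CPM at Day 3, and 109.9, 233 and 224 CPM at Day 8. The log2 fold change over saline at Day 8 was 0.70 (SE 0.481, edgeR adjusted p = 0.956), and the groups overlapped through saline replicate 1. The alpha chain of I-E is not made in C57BL/6 mice, and its gene, listed as the pseudogene H2-Ea-ps, was at 0 in all 7 libraries.

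Cd74, the invariant chain, differed widely between the saline-treated libraries. Its levels were 174 and 35.0 CPM in saline, 43.8 and 49.7 CPM at Day 3, and 50.5, 131 and 122 CPM at Day 8. Saline replicate 1 was 4.97-fold above saline replicate 2 and above every Day 8 library, whereas for H2-Aa the same ratio was 1.15. The log2 fold change at Day 8 was -0.05 (SE 0.680, edgeR). It was 1.53 without saline replicate 1, 0.28 without Day 8 replicate 1 and -0.78 without saline replicate 2, so its direction depended on which libraries were kept.

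The subunits of H2-DM, the peptide exchange factor, were at lower levels. H2-DMa was at 8.59 and 6.47 CPM in saline, 5.11 and 7.86 CPM at Day 3, and 7.81, 10.6 and 14.5 CPM at Day 8. H2-DMb1 was at 17.5 and 10.2 CPM in saline, 10.2 and 8.80 CPM at Day 3, and 9.68, 19.4 and 24.1 CPM at Day 8. Both were highest in Day 8 replicate 3, next highest in Day 8 replicate 2, and overlapped between saline and Day 8. Their log2 fold changes at Day 8 were 0.55 (SE 0.408) and 0.36 (SE 0.469) by edgeR. With 1 library left out at a time, H2-DMb1 ran from 0.03 without saline replicate 2 to 0.79 without saline replicate 1, and H2-DMa from 0.30 without Day 8 replicate 3 to 0.76 without saline replicate 1. Near the 3′ end, 7.69% of the 50-base words of H2-DMb1 transcripts also occurred in H2-DMb2, a neighbouring copy at or below 0.165 CPM in all libraries, and the other members shared none with another gene.

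H2-Oa, the alpha chain of the H2-DO inhibitor, was close to the floor. Its levels were 0.981 and 0.483 CPM in saline, 0.921 and 0.828 CPM at Day 3, and 1.75, 0.990 and 1.24 CPM at Day 8. The highest value was in Day 8 replicate 1, the library in which the abundant members were lowest at Day 8. The Day 8 libraries lay above both saline-treated libraries, with Day 8 replicate 2 only just above saline replicate 1. The log2 fold change was 0.86 (SE 0.838, edgeR), about the size of its error, with 1.43 without saline replicate 1 and 0.43 without saline replicate 2. H2-Ob, the partner beta chain, was also highest in Day 8 replicate 1, at 4.43 CPM against 1.54 to 2.69 CPM in the other libraries.

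Ciita was at or below 12 reads in every count library and was not tested. It had 2 and 8 reads in the saline-treated libraries, 0 in Day 3 replicate 2, and 0, 12 and 10 in Day 8 replicates 1, 2 and 3, and its level in Day 3 replicate 1 was 0.106 CPM. The libraries over the floor of 3 reads were saline replicate 2 and Day 8 replicates 2 and 3. A difference in the other libraries was not detectable at this depth.

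Cd209a differed from the class II genes in its order of libraries. It was at 0.491 and 2.90 CPM in saline, 5.10 and 3.41 CPM at Day 3, and 2.57, 2.48 and 3.52 CPM at Day 8. Saline replicate 1 was the lowest library, with 4 reads, and the Day 3 libraries were above both saline-treated libraries. The log2 fold change at Day 3 was 1.97 (SE 0.822, adjusted p = 0.617 by limma), past the limits, and it was 0.69 without saline replicate 1. The call was lost without any 1 Day 3 library, at 1.71 and 2.27, with edgeR on the recovered counts, at 1.30, and with no quantile normalization, at 1.45.

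Over the 7 libraries, the 15 pairs among H2-Aa, H2-Ab1, H2-Eb1, H2-DMa, H2-DMb1 and Cd74 correlated at r = 0.64 to 0.98 on the quantile-normalized log2 scale. H2-Oa correlated with these 6 genes at 0.16 to 0.40 and Cd209a at -0.69 to 0.07. These values describe 7 libraries that include the treatment groups, saline replicate 1 and Day 8 replicate 1 among them.

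The ratios among the abundant members set saline replicate 1 apart. Reads of Cd74 amounted to 69.1% of those of H2-Aa in saline replicate 1 and to 13.4% to 21.7% in the other 6 libraries. For H2-Ab1 the values were 67.8% against 23.7% to 33.9%, and for H2-Eb1 64.8% against 29.8% to 38.7%. H2-Aa made up 32.0% of the members' summed level in saline replicate 1 and 50.7% to 57.7% elsewhere. The ratios within the other 6 libraries thus stayed in a narrow range while the summed level changed about 3-fold, from 415 to 1267 CPM. The cause of the ratio in saline replicate 1 was not tested.

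**Figure D2:**
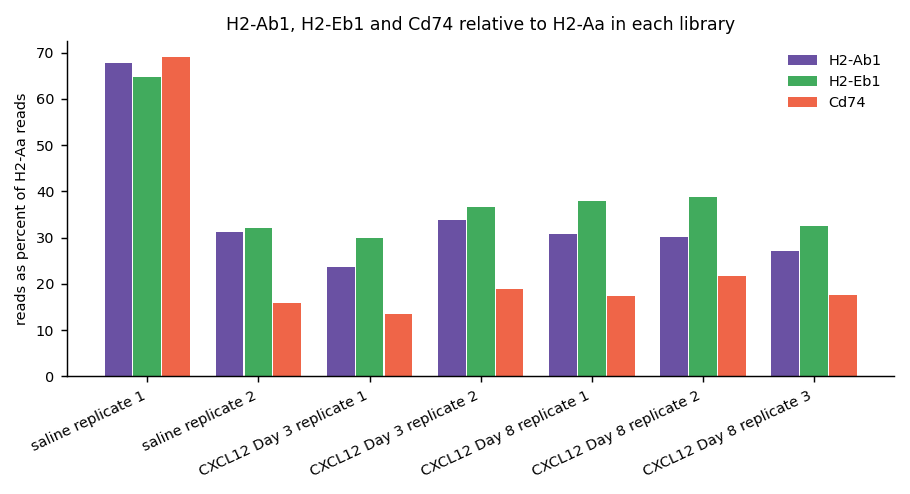
Reads of H2-Ab1, H2-Eb1 and Cd74 as a percent of H2-Aa reads (vertical axis) in each of the 7 libraries (1 bar per gene and library, no error bars). Saline replicate 1 stands at 64.8% to 69.1% for all 3 genes, and no other library exceeds 38.7%.

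Between Day 8 and saline, 8 of the 9 members were tested. H2-Aa was the 1 member past the limits, where 2.94% of the 15388 genes tested passed in either direction, 1.53% as higher and 1.42% as lower at Day 8. Of the 8 members, 7 had a log2 fold change above 0, as had 49.3% of all genes tested, and the median was 0.62, beside a median of -0.008 over all genes. H2-Aa and H2-Oa were the members whose groups did not overlap, both higher at Day 8, where 9.11% of all genes were and 10.1% were lower. No gene passed the adjusted p of 0.1 by edgeR, 658 genes (4.28%) had an unadjusted P under 0.05, and DESeq2 called 49 genes at the adjusted p. The call of H2-Aa was lost when any saline or Day 8 library other than Day 8 replicate 1 was left out, with log2 fold changes of 0.92 to 1.26, and with limma on all 7 libraries, at 0.88. Without saline replicate 1, H2-Eb1 passed in its place at 1.42 (SE 0.535, edgeR). Without saline replicate 2, Cd209a passed at 2.52 (SE 0.892, edgeR). In both fits the lone saline-treated library was assumed to vary like the other groups.

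**Figure D3:**
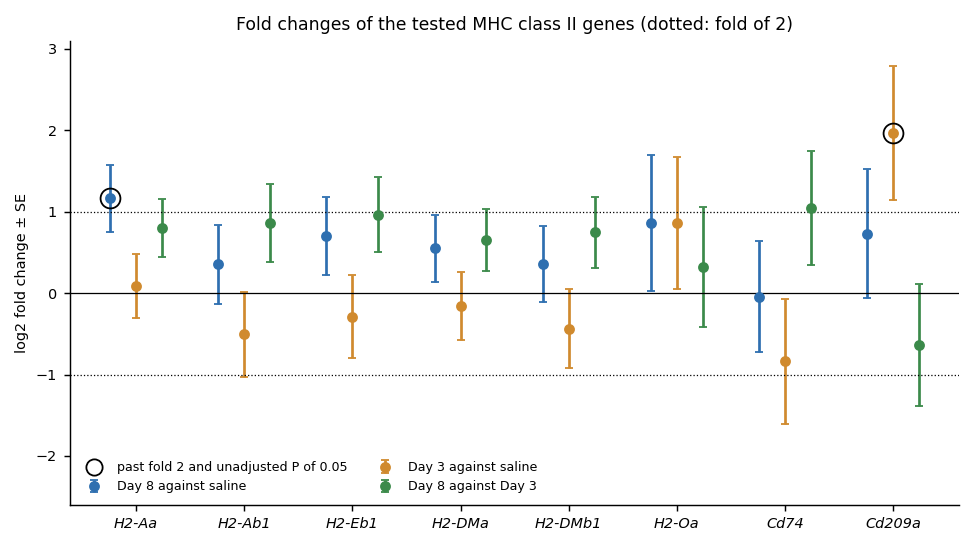
Log2 fold changes ± SE (vertical axis) of the 8 tested members for Day 8 against saline (edgeR), Day 3 against saline and Day 8 against Day 3 (limma), with rings for values past the limits for a call. The rings are on H2-Aa at Day 8 against saline and on Cd209a at Day 3 against saline.

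Between Day 3 and saline, Cd209a was the 1 member past the same limits, where 4.64% of the 14830 genes tested passed, 2% as higher and 2.64% as lower. Of the 8 members, 3 were above 0, as were 50.8% of all genes. The median of the 8 members was -0.22 and that of all genes 0.013. H2-Aa was 0.08 (SE 0.393), H2-Ab1 -0.51 (SE 0.527), H2-Eb1 -0.29 (SE 0.509) and Cd74 -0.84 (SE 0.766) by limma, none far beyond its error. In CPM, H2-Aa and Cd209a did not overlap as higher and H2-DMb1 as lower, beside 24% and 24.8% of all genes. The margin of H2-DMb1 was narrow, at 10.22 CPM in Day 3 replicate 1 and 10.23 CPM in saline replicate 2. On the quantile-normalized scale of the fit, H2-Aa and H2-DMb1 overlapped. No gene passed the adjusted p of 0.1 by limma, and 1112 (7.5%) had an unadjusted P under 0.05. Without saline replicate 2, when the lone saline-treated library was replicate 1, 2849 genes and 3 members (H2-Ab1, Cd74 and Cd209a) passed the limits, with Cd74 at -2.09. Without saline replicate 1, no member passed and the median of the same 8 members was 0.33, or 0.26 with Ciita, which was tested in that fit.

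Between Day 8 and Day 3, the comparison that tests the difference between the effects at the 2 times, no member passed, where 4.53% of the genes tested did, 2.2% as higher and 2.33% as lower. The log2 fold changes were 0.80 (SE 0.359) for H2-Aa, 0.86 (SE 0.481) for H2-Ab1, 0.96 (SE 0.465) for H2-Eb1, 0.65 (SE 0.382) for H2-DMa, 0.75 (SE 0.440) for H2-DMb1 and 1.04 (SE 0.699) for Cd74 by limma. The values of these 6 genes lay close together, and the smallest adjusted p among them was 0.698 for H2-Aa. Of the 8 members, 7 were above 0, as were 50.3% of all genes. In CPM, H2-Eb1, H2-Oa and Cd74 were the members whose groups did not overlap, all higher at Day 8, where 16.6% of all genes were and 16.1% were lower. The margin was narrow for H2-Oa, at 0.990 CPM in Day 8 replicate 2 and 0.921 CPM in Day 3 replicate 1. It was also narrow for Cd74, at 50.5 CPM in Day 8 replicate 1 and 49.7 CPM in Day 3 replicate 2. On the quantile-normalized scale of the fit, H2-Oa overlapped. No gene passed the adjusted p of 0.1 by limma, and 1048 (7.07%) had an unadjusted P under 0.05. Without Day 8 replicate 1, 4 members passed (H2-Aa, H2-Ab1, H2-Eb1 and H2-DMb1) at 1.11 to 1.32, and 1642 genes passed in all. With that library counted as Day 3, as its table is named, Cd74 joined them at 1.45 and 1782 genes passed. The 3 comparisons share libraries, so their values are set side by side and are not independent of each other.

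**Figure D4:**
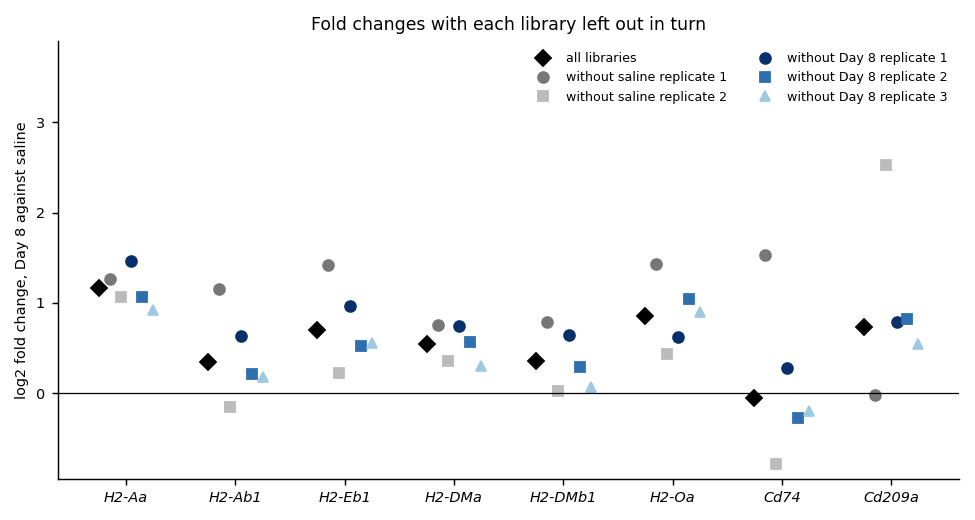
Log2 fold changes for Day 8 against saline (vertical axis, edgeR) of the 8 tested members with all libraries and with each saline or Day 8 library left out in turn (1 symbol per setting). Cd74 runs from -0.78 without saline replicate 2 to 1.53 without saline replicate 1, and H2-Aa stays between 0.92 and 1.46.

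The other genes of the pathway were described by lists. Among 6 genes of peptide processing, Ctss, the protease that trims the invariant chain, was 349.9 and 224 CPM in saline, 112 and 76.7 CPM at Day 3, and 64.8, 158 and 153 CPM at Day 8. All treated libraries were below both saline-treated libraries. The log2 fold change of Ctss from saline was -1.19 (SE 0.435, adjusted p = 0.956 by edgeR) at Day 8 and -1.79 (SE 0.490, adjusted p = 0.617 by limma) at Day 3. It was the 1 gene of this list past the limits in each of these comparisons. Neither call held without saline replicate 1, at -0.84 and -1.39, and at Day 8 the value was -0.88 without Day 8 replicate 1. Ctsd, an aspartic protease of the same compartment, was 612 and 416 CPM in saline, 259.6 and 227 CPM at Day 3, and 338, 841 and 1651 CPM at Day 8. Its log2 fold change between Day 8 and Day 3 was 1.70 (SE 0.575, adjusted p = 0.695 by limma), again the 1 gene of the list past the limits. With Day 8 replicate 1 left out, 3 of the 6 genes passed as higher, and their median was 1.05 where it had been 0.52.

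The 7 genes of the complex bound at the X and Y boxes (Rfx5, Rfxank, Rfxap, Nfya, Nfyb, Nfyc and Creb1) gave 0 calls in the 3 comparisons, with medians of -0.18, -0.14 and -0.07. Of the 7 interferon gamma signalling genes, 6 were tested, and Jak1, a kinase of the receptor, was the only one past the limits, lower at Day 3 than in saline, with a log2 fold change of -1.0 (SE 0.399, adjusted p = 0.617 by limma) that was -0.45, not past the limits, without saline replicate 1. Ifng itself was not tested. It was at 0.613 CPM in saline replicate 1 and at 0.825 and 0.932 CPM in Day 8 replicates 2 and 3, over the floor of 3 reads. In the other libraries it was at or below 0.117 CPM. Among genes of surface turnover and costimulation, Cd83, which stabilises class II at the surface, was 28.5 and 8.40 CPM in saline, 3.58 and 2.48 CPM at Day 3, and 8.98, 23.1 and 19.4 CPM at Day 8. It was lowest in the Day 3 libraries. Its log2 fold change was -2.19 (SE 0.658, adjusted p = 0.617) from saline to Day 3 and 2.26 (SE 0.601, adjusted p = 0.653) from Day 3 to Day 8 by limma, both past the limits. The first was -1.30, no longer past them, without saline replicate 1. March1, the ligase that removes class II from the surface, was at 7.36 and 4.25 CPM in saline, 4.60 and 5.07 CPM at Day 3, and 4.43, 11.4 and 15.7 CPM at Day 8. It was highest in Day 8 replicates 2 and 3 and next highest in saline replicate 1, as H2-Ab1 and H2-Eb1 were.

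The 14 genes of the MHC class I pathway, which presents peptides from the cytosol, were all tested, and 0 passed the limits in the 3 comparisons. Their medians were -0.20 for Day 8 against saline, -0.12 for Day 3 against saline and 0.23 for Day 8 against Day 3, where those of the class II members were 0.62, -0.22 and 0.77. Without saline replicate 1, the median at Day 8 against saline was 0.31, with 9 of the 14 above 0, where that of the class II members was 1.21. H2-K1, H2-D1, B2m and Tap1 then turned from below to above 0, at 0.26, 0.22, 0.44 and 0.67. The summed level of the class I genes, of which B2m was the most abundant, was highest in saline replicate 1 at 5432 CPM and 3076 to 4102 CPM in the other libraries.

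Markers of the cells that carry class II moved with the members in part. The 10 macrophage markers summed to 855 and 509 CPM in saline, 410.2 and 332 CPM at Day 3, and 289 CPM, 638 CPM and 666 CPM at Day 8, and none was at 0 in every library. Day 8 replicates 2 and 3 were above Day 8 replicate 1 and the Day 3 libraries, as for the members, but saline replicate 1 was the highest library. Of 9 macrophage markers tested, Cd68 was lower at Day 8 than in saline, with a log2 fold change of -1.36 (SE 0.333, adjusted p = 0.956 by edgeR), and the other 8 did not pass. The median of the 9 was -0.41 and 7 were below 0. C1qb and C1qc, with the highest levels summed over the 7 libraries, were at -0.25 (SE 0.417) and 0.01 (SE 0.439). Without saline replicate 1, the median was -0.16, with 4 of the 9 above 0, and C1qb was 0.17 (SE 0.502). Without Day 8 replicate 1 the median was -0.04. Between Day 3 and saline, all 9 were below 0, with a median of -0.75, and without saline replicate 1 there were 8 below 0 and the median was -0.44. Of these, 7 did not overlap as lower, beside 24.8% of all genes, and 2 passed the limits, Csf1r at -1.52 (SE 0.589) and Cd68 at -1.59 (SE 0.345), each with an adjusted p of 0.617 by limma. Without saline replicate 1, Csf1r was -0.83 and no longer passed, and neither did Cd68 at Day 8, at -0.92. Between Day 8 and Day 3, 7 of the 9 were above 0, with a median of 0.53 beside 0.77 for the members, and none passed. With Day 8 replicate 1 left out, all 9 were above 0, with a median of 0.91. In that fit 3 of them passed as higher at Day 8, where 1642 genes passed in all.

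The dendritic cell markers summed to 120.1 and 88.1 CPM in saline, 72.4 and 76.8 CPM at Day 3, and 63.0, 83.9 and 76.6 CPM at Day 8, mostly from Fscn1. Flt3, the receptor that dendritic cells depend on, was 1.84 and 1.45 CPM in saline, 1.44 and 1.66 CPM at Day 3, and 4.08, 3.22 and 4.66 CPM at Day 8. Every Day 8 library was above all others for Flt3, with a log2 fold change of 1.16 (SE 0.467, adjusted p = 0.697 by limma) from Day 3, past the limits, and of 1.28 (SE 0.558, adjusted p = 0.956 by edgeR) from saline, not past them. Without Day 8 replicate 1 the first was 1.07 and no longer passed. In that fit 1 of the 4 dendritic cell markers tested passed as higher at Day 8. Their median was 0.70, where it had been 0.21 with all libraries. At Day 8 against saline, Ccr7 was -1.96 (SE 1.000) and Fscn1 -0.59 (SE 0.269) by edgeR, both lower without overlap and not past the limits, and the median of the 5 dendritic cell markers was 0.05. Zbtb46 was 0.05 (SE 0.720) and Itgax 0.205 (SE 0.731), both smaller than their errors. The markers of the cDC1 and cDC2 subsets gave no call in any of the 3 comparisons with all libraries. Markers of both lists passed in fits with a library left out. Cd7 of the cDC2 list was at 4.54 and 0.483 CPM in saline replicates 1 and 2. With all libraries its log2 fold change over saline was 1.06 (SE 0.852, edgeR) at Day 8 and 1.14 (SE 1.023, limma) at Day 3, and the groups overlapped. Without saline replicate 1 these were 3.39 and 3.17, which rest on saline replicate 2 alone. With Day 8 replicate 1 left out, 1 of the 6 cDC1 markers passed as higher at Day 8 than at Day 3. B cell markers were low, with Pax5 at 0 in all 6 count libraries and the 6 markers together at 4.76 to 11.2 CPM. The 3 tested, Ms4a1, Cd79b and Cr2, were all lower at Day 8 than in saline without overlap, beside 10.1% of all genes, and 0 passed the limits. Cr2 passed as lower at Day 3 than in saline, at -1.47 (SE 0.535, adjusted p = 0.617 by limma), a call lost without saline replicate 1, at -1.08. Cd79b passed as lower at Day 8 than at Day 3, at -1.07 (SE 0.410, adjusted p = 0.697 by limma). The markers of all leukocytes summed to 302 and 224 CPM in saline, 180.5 and 178 CPM at Day 3, and 191, 282 and 339 CPM at Day 8, mostly from Cd52 and Laptm5. These differed in sign between Day 8 and saline, where Cd52 was 0.74 (SE 0.303), Laptm5 -0.78 (SE 0.323) and Ptprc -0.55 (SE 0.480) by edgeR and none passed. Ptprc was 0.09 without saline replicate 1. Laptm5 passed as lower at Day 3 than in saline, at -1.01 (SE 0.332, adjusted p = 0.617 by limma), a call lost without saline replicate 1, at -0.56. Between Day 8 and Day 3, all 5 leukocyte markers were above 0, with a median of 0.38, and none passed. With Day 8 replicate 1 left out, their median was 0.74 and 1 passed as higher at Day 8. The part of these cells in the levels of the class II genes was not tested.

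**Figure D5:**
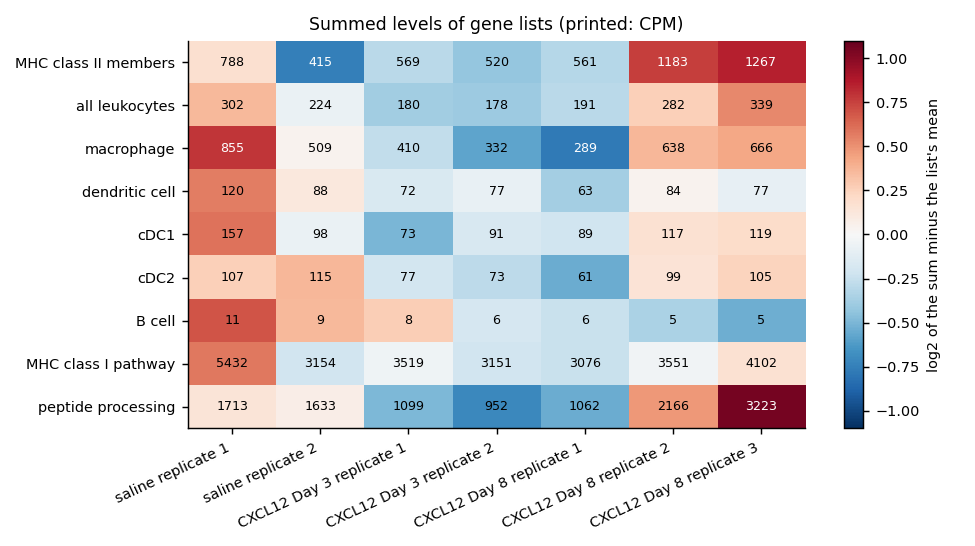
Summed levels of the members and of 8 other gene lists (rows) in the 7 libraries (columns), printed in CPM and coloured by the log2 of the sum minus the mean of the list over the libraries. The members are highest in Day 8 replicates 2 and 3, at 1183 and 1267 CPM, and the macrophage list is highest in saline replicate 1, at 855 CPM.

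The genes most like the members were found by the Pearson r over the 7 libraries with the mean centred log2 level of the 8 tested members. The search covered 4187 genes of at least 10 normalized counts in every library and an SD of at least 0.5. The mean includes H2-Oa and Cd209a, which did not follow the abundant members. In saline replicate 1 it was 0.051, with Cd209a at -2.42 and Cd74 at 1.40, so likeness to it is not likeness to the abundant members alone. The first 10 were Chst10, Gmpr, Insl6, Nova2, Tmem158, Coch, Slc2a12, Nipal3, AA388235 and Sertad4, at r = 0.967 to 0.989, and none is in the lists above. Gmpr, an enzyme of purine metabolism, was 38.5 and 23.3 CPM in saline, 31.7 and 31.1 CPM at Day 3, and 40.5, 54.0 and 67.3 CPM at Day 8. It was lowest in saline replicate 2 and highest in Day 8 replicates 2 and 3. Of the listed genes, March1 was the most alike, at r = 0.960 and rank 16.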

How the data were processed

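QuantSeq 3′ libraries of 7 uterine samples were grouped by their labels. Alignment by the authors used Bowtie2, reads with 1 or several alignments were counted over genes in Bedtools, and edgeR served for quantile normalization. Both mm10 and hg19 are named in the submitters' processing notes. The authors deposited raw counts for 6 libraries. For Day 3 replicate 1 the deposited values are log2 of normalized counts plus 1. Of its 4424 low values, 96.8% fell within 0.1 of a whole number after a factor of 1.0523 was divided out, the factor being the one with the largest such share, where chance gives 20%.

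The Day 8 and saline groups were compared in edgeR 4.0.16 (TMM, filterByExpr, quasi-likelihood) on the 6 count libraries, and Day 3 with both groups by limma 3.58.1 (trend) on quantile-normalized log2(normalized count + 1) of all 7, with 10 normalized counts in 2 libraries. The pseudocount understates fold changes of low genes, although for Cd209a and H2-Oa at Day 8 this fit gave larger values (1.33 and 1.18) than edgeR (0.73 and 0.86). P-values were adjusted over all genes tested, and the tests were tested on simulated data. R 4.3.3 and, as an alternative, DESeq2 1.42.0 were used. Symbols on several rows (35) were kept apart. Other alternatives were normalization, filters, pseudocount, the compared groups alone, the replicate block and each library left out. Named genes were all members, genes of the pathway and marker lists, and the 10 genes most like the members. The members and lists were chosen with earlier results of these data known. Monocyte, plasma cell, T cell, NK cell, neutrophil, epithelial, stromal, smooth muscle, endothelial, lymphatic, adipocyte, ovary and erythrocyte lists were also summed. One B cell marker is not reported here. Promoters are from RefSeq (GRCm38.p6), transcripts from GENCODE M21.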

Additional observations from a re-analysis of the deposited data

How the results depend on the processing

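Values are the number of genes or members past the limits for a call, or of genes past an adjusted p of 0.1 where named. For Day 8 against saline (453 genes, 1 member, 0 adjusted), DESeq2 gave 49 adjusted, limma 0 members, and the replicate block 157 genes and 0 members. Day 8 replicate 1 counted with Day 3 gave 1094 genes and 58 adjusted. With both saline replicate 1 and Day 8 replicate 1 left out, an alternative chosen after seeing the data, 1413 genes (1228 adjusted) and 5 members passed (H2-Aa, H2-Ab1 at 1.42, H2-Eb1 at 1.70, H2-DMb1 at 1.08 and Cd74 at 1.85), from 4 libraries with 1 residual degree of freedom and a lone saline-treated library assumed to vary like the others. Cd74 changed sign with limma (0.20), the block (0.06), Day 8 replicate 1 counted with Day 3 (0.27) or left out (0.28). For Day 3 against saline (688 genes, 1 member), 1042 genes passed with no quantile normalization, 36 were adjusted with no filter, and 0 members passed under either, under the filter in every library, edgeR, the 2 groups alone or the block. For Day 8 against Day 3 (672 genes, 0 members), no filter gave 28 adjusted, the 2 groups alone 3 adjusted and 1 member (Cd74), the block 418 genes, and Day 8 replicate 1 counted with Day 3 gave 1782 genes, 1358 adjusted and 5 members, with H2-Oa at -0.23.

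Leaving out each library moved the counts of genes from 229 to 1527, 260 to 2849 and 257 to 1642 in the 3 comparisons, of adjusted genes from 0 to 15, 0 to 2358 and 0 to 468, and of members from 0 to 1, 0 to 3 and 0 to 4. The members' median ran from 0.29 to 1.21, -0.63 to 0.26 and 0.53 to 1.14. For Day 8 against saline, H2-Ab1 ran from -0.15 to 1.15, Cd74 from -0.78 to 1.53 and Cd209a from -0.02 to 2.52. For Day 3 against saline, H2-Aa ran from -0.09 to 0.26, H2-Ab1 from -1.26 to 0.24, H2-Eb1 from -0.99 to 0.41, H2-DMa from -0.44 to 0.14 and Cd74 from -2.09 to 0.41. The causes were not tested.

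Same-numbered libraries did not deviate together from their group means (r = -0.17 to 0.01). In a group of 2 libraries the deviations mirror each other, so these values are not separate checks and cannot decide whether samples were paired. The labels do not tie a horn to an animal, and the numbers were not taken to pair the samples. Depth limits Ciita and H2-Oa most, at 0 to 15 reads in the count libraries.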

Other observations

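Among marker lists of cells that carry little class II, the 6 NK cell markers summed to 16.2 and 26.8 CPM in saline, 31.3 and 39.0 CPM at Day 3, and 35.8, 63.4 and 84.3 CPM at Day 8, and 3 of the 5 tested passed as higher at Day 8 than in saline by edgeR (Ncr1, Klrb1c and Gzma), of which Klrb1c alone passed without saline replicate 1, with Ncr1 at 2.29 where it had been 2.55 and Gzma at 1.53 where it had been 1.74. The 5 adipocyte markers, led by Cfd, were all lower at Day 8 than in saline past the limits for a call (edgeR), and their sum differed between the Day 3 libraries, at 1944 and 211 CPM. The ovary or oviduct markers summed to 683 and 1541 CPM in saline, 698 and 779.5 CPM at Day 3, and 407, 4257 and 252 CPM at Day 8. In saline replicate 2 and Day 8 replicate 2 the most abundant of them was Hsd3b1, an enzyme of steroid synthesis, at 709 and 2378 CPM, and in the other libraries it was the oviduct gene Ovgp1. Day 8 replicates 2 and 3, which were alike in the class II genes, thus stood at opposite ends for these markers. Hsd3b1, Cyp11a1 and Inha passed as lower at Day 3 than in saline by limma, and without saline replicate 1 Hsd3b1 and Inha still did. Hsd3b1 also passed as higher at Day 8 than at Day 3, but not without Day 8 replicate 1. These genes were at or below 1.55 CPM in the Day 3 libraries, so the size of their fitted changes depends on the pseudocount and is not given.

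Monocyte markers summed to 361 and 498 CPM in saline, 652 and 667 CPM at Day 3, and 652, 1170.0 and 1591 CPM at Day 8, mostly from Plac8. Plac8 was the only monocyte marker past the limits, higher at Day 8 than in saline at 1.68 (SE 0.442, edgeR), and it did not pass without saline replicate 1, at 1.41. Chil3 was -1.45 in that comparison and did not pass. With Day 8 replicate 1 left out, 2 of the 5 monocyte markers passed as higher at Day 8 than in saline, and 1 as higher than at Day 3. Over the 7 libraries T cell markers lay between 7.62 and 13.4 CPM and plasma cell markers between 11.6 and 22.1 CPM. Neither list gave a call with all libraries, and 1 plasma cell marker passed as higher at Day 8 than at Day 3 without Day 8 replicate 1. Neutrophil markers lay between 110.0 and 197 CPM. Retnlg gave most of the neutrophil sum in every library except saline replicate 2. S100a8 and S100a9 passed as lower than saline at Day 8, at -2.49 (SE 0.734) and -2.79 (SE 0.413) with an adjusted p of 0.956 by edgeR. They also passed as lower at Day 3, at -2.86 (SE 0.783) and -2.73 (SE 0.486) with an adjusted p of 0.617 by limma. Retnlg went the other way without overlap, at 0.89 (SE 0.354) at Day 8 and 0.81 (SE 0.340) at Day 3, and did not pass. With Day 8 replicate 1 left out, 1 neutrophil marker passed as higher at Day 8 than in saline.

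Markers of several other cell types were also higher in Day 8 replicates 2 and 3 than in Day 8 replicate 1, as the class II members were. Endothelial markers summed to 197 and 144.5 CPM in saline, 161 and 176.5 CPM at Day 3, and 136, 248 and 259 CPM at Day 8. Lymphatic markers, almost all from Lyve1, summed to 119 and 77.4 CPM in saline, 85.8 and 70.6 CPM at Day 3, and 22.9, 199.6 and 232 CPM at Day 8. Smooth muscle markers summed to 2384 and 1550 CPM in saline, 3045 and 3473 CPM at Day 3, and 1877, 4080 and 3922 CPM at Day 8. The highest 2 libraries of each of these lists were Day 8 replicates 2 and 3. Among their genes, Des of smooth muscle alone passed, higher at Day 8 than in saline at 1.19 (SE 0.486, edgeR), and without saline replicate 1 it was 1.49 (SE 0.669), larger but not past the limits. With Day 8 replicate 1 left out, 4 of the 5 smooth muscle genes and 1 lymphatic gene passed as higher at Day 8 than in saline. Against Day 3 in that setting, 2 endothelial genes, 1 smooth muscle gene and 1 lymphatic gene passed as higher at Day 8, where 1642 genes passed in all. The count of all genes in the fit against saline is not set beside the marker counts. Marker counts from that fit, here and for the monocyte, neutrophil and epithelial lists, are therefore not read as a result about a cell type. The part of these cell types in the levels of the class II genes was not tested.

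Epithelial markers summed to 619 and 852 CPM in saline, 939.6 and 899 CPM at Day 3, and 1013, 426 and 753 CPM at Day 8. There was no call with all libraries. With Day 8 replicate 1 left out, 1 marker passed as higher and 2 as lower at Day 8 than at Day 3. Against saline, 1 passed as lower in that setting. The log2 fold change of Foxa2 at Day 8 over saline was 0.64 (edgeR), and 1.39 without saline replicate 1. Within that list, Foxa2 followed the mean of the tested members over the 7 libraries (r = 0.953) and Krt19 ran against it (r = -0.788). Uterine stroma markers summed to 1811 and 1031 CPM in saline, 989 and 1055 CPM at Day 3, and 1427, 1023 and 1420.0 CPM at Day 8. Their calls by limma were Msx1, at -1.48 (SE 0.428) from saline to Day 3 and 1.89 (SE 0.390) from Day 3 to Day 8, and Hoxd10, at -1.40 (SE 0.582) from saline to Day 3 and -0.33 without saline replicate 1. Erythrocyte markers summed to 5756 and 10070 CPM in saline, 27116 and 16262 CPM at Day 3, and 11484, 18430 and 9829 CPM at Day 8. Hbb-bs and Hbb-bt passed as higher at Day 3 than in saline, at 1.01 (SE 0.418) and 1.60 (SE 0.629) by limma, and without saline replicate 1 neither passed, at 0.51 and 0.67.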
